A study of Homo sapiens with 4 samples.

Results

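The expressed antisense RNAs of HEK293T cells, a human embryonic kidney line, were followed across 4 libraries from PBRM1 CRISPR knockout cells. Members were chosen by summed reads: a gene was included when its deposited biotype was antisense and its reads summed over the 4 libraries came to at least 200. ZFAS1, GAS5, EPB41L4A-AS1 and the SNHG genes were left out by name. This gave 146 of the 58735 genes in the table. Of 5583 genes with the antisense biotype, 3578 had at least 1 read, 5433 stayed under 200 reads and 4 (SNHG12, SNHG7, SNHG10 and ZFAS1) were left out by name. On this measure, AL034417.4 with 200 reads, FEZF1-AS1 with 201 and AC093673.1 with 201 stood just inside the limit, and AC010761.1 with 192, ARHGAP5-AS1 with 193 and AC010478.1 with 195 just outside it.

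All 4 groups shared the disrupted PBRM1 gene and were transfected with a plasmid for 48 h. The plasmid encoded GFP-tagged PBRM1 as the unaltered protein (WT) or with 1 of 3 substitutions in the BAH (bromo-adjacent homology) region, P1048R, T1202K or C1233W. Each construct had 1 library, so every difference below is a difference between libraries, without a replicate check and without a p-value. Whether the knockout line is 1 clone is not stated in the labels, and untransfected cells were not analysed here.

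PBRM1, also called BAF180, belongs to the PBAF form of the SWI/SNF chromatin remodelling complex. Antisense RNAs are transcribed from the strand opposite another gene. Many start close to the promoter of a protein-coding gene and run away from it, so that a pair of divergent transcripts leaves one stretch of open chromatin, whereas others start inside a gene or beyond its end and run across it. Some act at their own locus, as KCNQ1OT1 does in imprinting, some act elsewhere, and for many no function is known. The nuclear exosome and its adaptors degrade a large part of such transcripts.

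Promoter sequences are shown for 4 head-to-head pairs, from among those in which the balance between both RNAs differed most from WT. In such a pair a GENCODE start of the antisense RNA lies within 1000 bases of one of its sense gene, on opposite strands. The class rests on this distance alone, so the genes of a pair can overlap, and divergent is used below in this sense. Each window holds 250 bases before and 50 bases after the RefSeq start of the antisense RNA on GRCh38.p14, which need not be the start that GENCODE gives. All 4 lie on the minus strand and are printed 5′ to 3′ in the direction of the antisense RNA. Capitals mark the motifs found, GGGCGG and CCAAT, the latter written ATTGG where it lies on the other strand.
CEBPB-AS1, chr20:50192020-50192319: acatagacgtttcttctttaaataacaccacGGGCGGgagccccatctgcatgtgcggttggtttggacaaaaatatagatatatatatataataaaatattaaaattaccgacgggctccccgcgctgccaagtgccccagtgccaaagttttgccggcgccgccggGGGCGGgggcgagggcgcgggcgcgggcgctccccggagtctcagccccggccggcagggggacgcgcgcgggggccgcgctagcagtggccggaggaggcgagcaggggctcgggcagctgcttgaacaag
NR2F1-AS1, chr5:93585540-93585839: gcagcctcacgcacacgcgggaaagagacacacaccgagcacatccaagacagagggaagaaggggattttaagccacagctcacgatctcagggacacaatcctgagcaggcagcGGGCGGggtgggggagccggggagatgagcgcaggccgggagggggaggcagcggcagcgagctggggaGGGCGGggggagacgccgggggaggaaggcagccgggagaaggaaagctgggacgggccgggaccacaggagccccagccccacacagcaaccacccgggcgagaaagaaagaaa
ATP6V0E2-AS1, chr7:149873813-149874112: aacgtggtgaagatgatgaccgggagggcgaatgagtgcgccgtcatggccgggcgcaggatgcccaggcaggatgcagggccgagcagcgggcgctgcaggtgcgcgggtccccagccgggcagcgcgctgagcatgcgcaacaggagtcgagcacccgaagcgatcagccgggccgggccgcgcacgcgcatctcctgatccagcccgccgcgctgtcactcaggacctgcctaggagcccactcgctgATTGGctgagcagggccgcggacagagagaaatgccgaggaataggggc
RUSC1-AS1, chr1:155324127-155324426: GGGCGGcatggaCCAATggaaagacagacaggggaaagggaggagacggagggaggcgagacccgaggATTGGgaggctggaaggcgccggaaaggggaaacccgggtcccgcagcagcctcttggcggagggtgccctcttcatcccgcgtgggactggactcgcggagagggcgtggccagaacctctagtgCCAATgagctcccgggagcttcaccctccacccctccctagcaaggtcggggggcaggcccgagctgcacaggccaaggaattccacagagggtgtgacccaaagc

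The RUSC1-AS1 window shared 170 bases with the matching window of RUSC1, and the other 3 shared none with that of their sense gene. The windows of CEBPB (50190333 to 50190632) and NR2F1 (93582972 to 93583271) lay over 1000 bases from those of their antisense RNAs. In GENCODE the spans of CEBPB-AS1, NR2F1-AS1 and ATP6V0E2-AS1 contained the window of their sense gene. RefSeq promoters were matched by symbol for 67 of the 146 antisense RNAs, and 79 had no entry in the table. The matched windows had a median GC content of 63.7% and a median of 23 CpG sites, against 65.8% and 27 for 9188 genes with at least 200 reads and 58.3% and 14 for all 27305 promoters. Searched on both strands, GGGCGG, the GC box, was found in 37 windows (55.2%), against 72.2% for genes with at least 200 reads and 44.6% for all promoters. CCAAT was found in 28 (41.8%, against 37.4% and 35.7%), TATAAA in 3 (4.48%, against 4.97% and 12%), TGACGTCA in 2 (2.99%, against 3.55% and 1.98%) and TGATGNAA in none (against 1.52% and 3.67%).

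The 4 libraries held 10246250 to 11205322 counted reads, and 25670 to 26718 genes had at least 1 read. Levels are given as CPM, read counts relative to library size, which was scaled with edgeR's trimmed mean of M values (TMM), and PBRM1 stood at 22768 CPM in WT, 8805 in P1048R, 15262 in T1202K and 60509 in C1233W. The amount of PBRM1 RNA therefore differed with the construct, and the contributions of both to the differences below cannot be told apart. Of 8 markers of embryonic kidney epithelium none was at 0 in all libraries and their summed level was 283 to 347 CPM. The largest part was CDH2 at 131 to 180 CPM, whereas PAX8 was at 0 to 0.214 CPM, under 3 reads in every library. The summed level was 2.35 to 4.07 CPM for 4 blood markers (CD3E at 0 in every library), 0 to 0.387 CPM for 3 endothelial markers and 16.9 to 32.5 CPM for 4 fibroblast markers (COL1A2 at 0 in every library). The fibroblast sum was 31.8 CPM in WT, 16.9 in P1048R, 24.1 in T1202K and 32.5 in C1233W, almost all of it COL1A1, and its part in the results was not tested.

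The kit marked strand, but the sources used here do not give the strand setting of the counting, and without it reads from an antisense RNA and from an overlapping gene cannot be told apart. By GENCODE release 29, 26 of the 146 antisense RNAs shared no exonic base with another gene, 115 shared up to 50% and 5 shared more. All 14 calls of a higher level against WT described below fell in the 115 with some shared bases, which are most of the 146. The lower calls there numbered 3 in P1048R, 4 in T1202K and 2 in C1233W, against 1, 0 and 0 among the 26.

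The 146 antisense RNAs took a small and similar part of every library. They held 0.192% of all reads in WT, 0.212% in P1048R, 0.195% in T1202K and 0.206% in C1233W. Their summed level was 2110 CPM in WT, 1991 in P1048R, 1893 in T1202K and 2066 in C1233W. WT was the highest library for 58 of them, C1233W for 39, P1048R for 32 and T1202K for 17. T1202K was the lowest for 47, WT for 42, P1048R for 35 and C1233W for 22. The highest and lowest libraries lay within 1.5-fold of each other for 77 members and at least 2-fold apart for 18. These counts rest on the TMM scaling: WT had the lowest share of all reads but the highest summed CPM. The same counts over all genes are not given here, so they describe the list alone.

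Mean levels ran from 4.65 to 104 CPM with a median of 8.95. The most abundant in reads was FGD5-AS1, which starts head-to-head with NR2C2, at 121 CPM in WT, 95.2 in P1048R, 99.9 in T1202K and 99.9 in C1233W. THAP9-AS1, divergent from the transposase-derived gene THAP9, was at 62.4 CPM in WT, 88.0 in P1048R, 74.7 in T1202K and 89.9 in C1233W, lowest in WT. HCG18, beside TRIM39 in the major histocompatibility region, was at 70.5, 59.6, 58.9 and 62.9 CPM in the same order.

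GABPB1-AS1, divergent from a subunit gene of the GA-binding protein, was at 61.1, 47.2, 36.8 and 79.1 CPM, with C1233W highest and T1202K lowest. PSMA3-AS1, which runs into the proteasome gene PSMA3, was at 58.5, 42.1, 33.8 and 48.1 CPM. OTUD6B-AS1 was at 63.2, 49.2, 44.1 and 39.5 CPM, with all mutants below WT. HAGLR, divergent from HOXD1, stood out in C1233W with 52.7 CPM against 35.7 in WT, 34.1 in P1048R and 33.5 in T1202K.

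Of the 3 others among the 10 highest, SLC16A1-AS1 was at 45.4, 53.1, 47.3 and 55.9 CPM, ZNF503-AS2 at 43.3, 41.2, 46.4 and 37.0, and WAC-AS1 at 34.2, 33.3, 29.1 and 39.7. None of the 10 passed the size rule explained below in a comparison with WT. Per kilobase of exonic length, on which genes can be compared, FGD5-AS1 stood at 20.3 CPM, THAP9-AS1 at 17.9 and HOTAIRM1 at 16.4, whereas KCNQ1OT1, a single exon of 91667 bases, stood at 0.22.

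**Figure D1:**
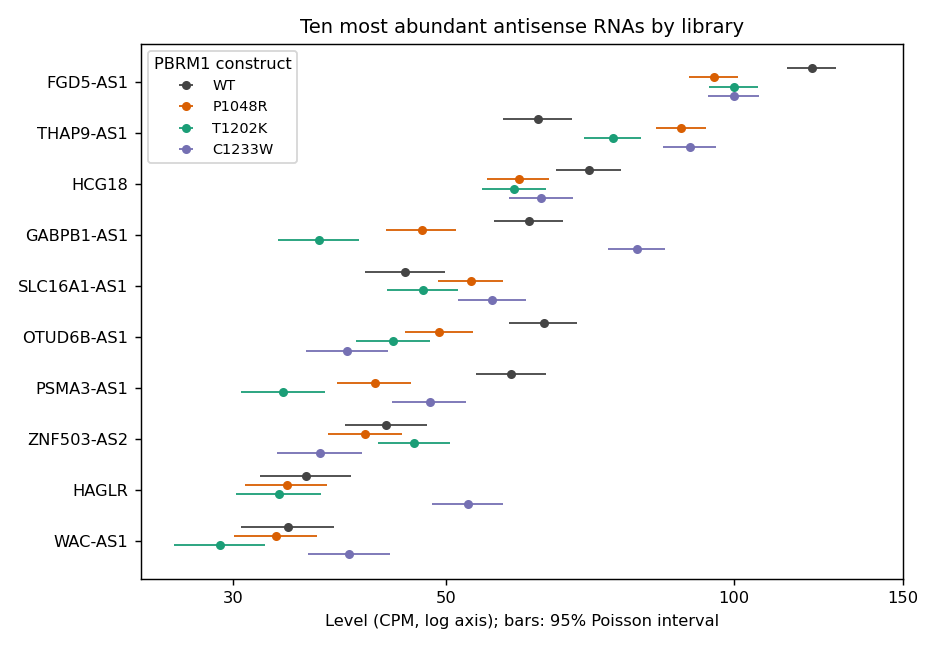
Level of the 10 most abundant antisense RNAs in each library, in CPM on TMM-scaled library sizes, 1 point per library with its exact 95% counting interval. FGD5-AS1 lies between 95.2 and 121 CPM in all 4 libraries, and GABPB1-AS1 spreads from 36.8 in T1202K to 79.1 in C1233W.

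A log2 ratio against WT was taken for the 16262 genes that reached 1 CPM in any library, after adding 0.5 to each count. The median ratio of the antisense RNAs was −0.07 in P1048R, −0.15 in T1202K and 0.03 in C1233W. Over all genes compared the medians were −0.04, −0.01 and −0.01, and over those with at least 200 reads −0.03, 0.01 and −0.04. The 118 long intergenic RNAs with at least 200 reads had medians of −0.01, −0.11 and 0.08, and the 11183 protein-coding genes of −0.03, 0.01 and −0.05. Of the 146, 58 were above WT in P1048R (39.7%), 58 in T1202K (39.7%) and 75 in C1233W (51.4%). The shares were 46.9%, 49.2% and 49.1% for all genes compared. For the long intergenic RNAs they were 48.3%, 40.7% and 56.8%. With total counts in place of TMM the median of all genes became 0.19, 0.17 and 0.13 and that of the antisense RNAs 0.15, 0.02 and 0.16, so that the sign of the list's median turned in P1048R and T1202K.

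**Figure D2:**
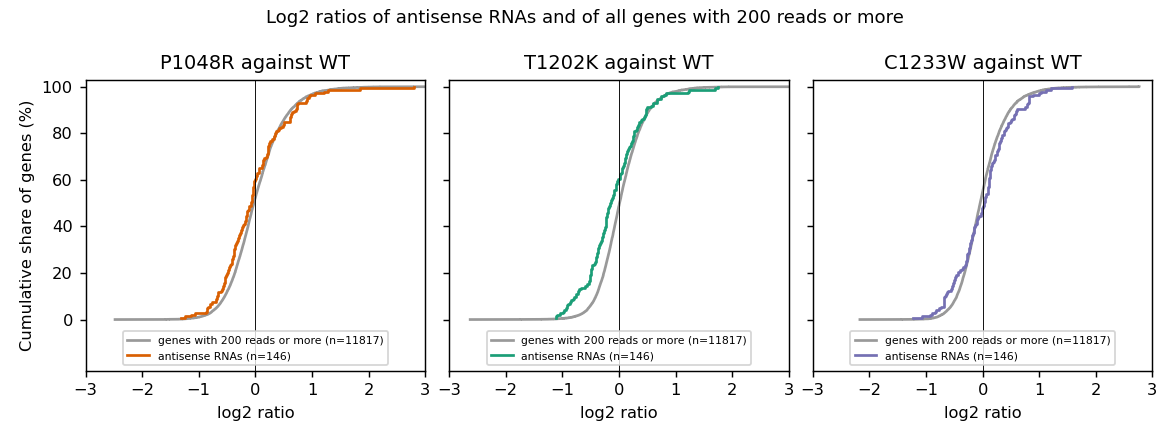
Cumulative share, in percent, of the antisense RNAs (n = 146) and of all genes compared that have at least 200 reads, against the log2 ratio to WT, 1 panel per mutant, with the horizontal axis shown from −3 to 3. The medians, where a curve crosses 50%, are, for the antisense RNAs, −0.07, −0.15 and 0.03.

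A gene passed the size rule when its log2 ratio reached 1 or −1 (2-fold) and the 95% counting interval of the ratio lay to one side of 0. Such intervals hold counting error alone, without variation between replicates. They also treat reads as independent, which PCR copies of a molecule are not. In P1048R 5 antisense RNAs were higher (3.42% of 146; 4.48% of all genes compared and 3.27% of those with at least 200 reads) and 4 were lower (2.74%; 3.02% and 1.03%). In T1202K 4 were higher (2.74%; 2.95% and 2.05%) and 4 lower (2.74%; 2.21% and 0.465%). In C1233W 5 were higher (3.42%; 4.19% and 1.79%) and 2 lower (1.37%; 1.21% and 0.296%). The shares of higher members were below those of all genes compared and above those of genes with at least 200 reads, the set chosen by the same read minimum. The shares of lower members were above those of genes with at least 200 reads in each mutant, and above those of all genes in T1202K and C1233W. Genes with at least 200 reads have no upper limit on reads, so they are not matched to the members in depth. The part of depth in these differences was not tested. Under total counts the split was 10 higher and 2 lower in P1048R, 5 and 0 in T1202K, and 6 and 1 in C1233W. The split of the 16206 genes then compared moved the same way, to 1253 higher and 231 lower, 806 and 221, and 943 and 125. In all, 16 antisense RNAs passed against WT in at least 1 mutant and 130 in none.

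CEBPB-AS1 and HOXC13-AS were higher in all 3 mutants, where 1.25% of all genes compared were higher and 0.332% lower, and no antisense RNA was lower in all 3. CEBPB-AS1 (ENSG00000277449, chromosome 20, 50184598 to 50191498, minus strand) is head-to-head with the gene of C/EBP beta, a leucine zipper transcription factor of stress and differentiation. Their nearest GENCODE starts lie 764 bases apart, and these coordinates contain the RefSeq start window of CEBPB, so both genes overlap. The first window printed above surrounds the RefSeq start of CEBPB-AS1, which lies upstream of its GENCODE start and outside these coordinates. CEBPB-AS1 had 16 reads in WT, 147 in P1048R, 67 in T1202K and 54 in C1233W, or 1.71, 12.3, 5.92 and 5.22 CPM. WT was lowest and P1048R highest, with intervals of the ratio to WT above 0 in every mutant. For P1048R the log2 ratio was 2.81 (2.10 to 3.69), for T1202K 1.76 (0.99 to 2.68) and for C1233W 1.58 (0.78 to 2.51).

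HOXC13-AS (ENSG00000249641, chromosome 12, 53935328 to 53939643, minus strand) is head-to-head with HOXC13, the most 5′ gene of the HOXC cluster, with starts 878 bases apart. It had 27 reads in WT, 126 in P1048R, 108 in T1202K and 62 in C1233W, or 2.89, 10.6, 9.54 and 6.0 CPM, again lowest in WT. Its log2 ratio was 1.85 (1.26 to 2.53), 1.70 (1.10 to 2.39) and 1.04 (0.38 to 1.76). With 2 added to each count in place of 0.5, the C1233W ratio was 0.997 and no longer passed. HOXC13 itself was at 16.9, 20.8, 21.0 and 22.3 CPM.

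The other higher calls were spread over genes of unrelated roles. ATP6V0E2-AS1 (chromosome 7, 149867697 to 149880610), head-to-head with a gene for a subunit of the vacuolar proton pump, was at 8.13 CPM in WT, 19.8 in P1048R, 19.0 in T1202K and 12.5 in C1233W. Its ratio passed in P1048R at 1.28 (0.90 to 1.67) and in T1202K at 1.22 (0.84 to 1.62), and was 0.61 (0.20 to 1.05) in C1233W. NR2F1-AS1 (chromosome 5, 93409359 to 93585648), head-to-head with the nuclear receptor gene NR2F1 (COUP-TF1), was at 11.0, 25.6, 18.5 and 15.7 CPM and passed in P1048R at 1.21 (0.89 to 1.55). Its ratios of 0.74 in T1202K and 0.51 in C1233W did not pass.

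AC093157.1, divergent from the diphthamide synthesis gene DPH5, was at 8.13, 17.0, 14.5 and 16.3 CPM. It passed in P1048R at 1.06 (0.68 to 1.46) and in C1233W at 1.00 (0.61 to 1.42), the latter lost at 0.99 with 2 added to each count. AL031714.1 was at 4.07, 6.53, 9.71 and 8.90 CPM. It passed in T1202K at 1.24 (0.71 to 1.83) and in C1233W at 1.12 (0.57 to 1.72), and 42.4% of its exonic bases lay in exons of other genes. AL590617.2, divergent from NHSL1, was at 4.07, 8.04, 6.18 and 9.48 CPM and passed in C1233W at 1.21 (0.67 to 1.80). In all of these WT was the lowest library.

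On the lower side, P1048R had the long host gene DLEU2, which carries the miR-15a and miR-16-1 precursors at the chromosome 13 region often deleted in chronic lymphocytic leukaemia. DLEU2 was at 13.2 CPM in WT, 5.53 in P1048R, 7.77 in T1202K and 7.06 in C1233W. Its ratio passed in P1048R at −1.25 (−1.71 to −0.81) and was −0.76 and −0.89 in the other mutants. AL513550.1 was at 9.84, 3.94, 6.89 and 6.96 CPM and passed in P1048R at −1.31 (−1.86 to −0.80). It is divergent from the splicing-related gene PNISR, which was at 653 CPM in WT, 363 in P1048R, 321 in T1202K and 418 in C1233W.

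SLFNL1-AS1 was at 6.85, 3.10, 3.44 and 6.19 CPM and passed in P1048R at −1.14 (−1.77 to −0.54), but not with total counts at −0.91. AC006329.1, with no protein-coding partner within reach and no exonic base shared, was at 7.06, 3.35, 5.30 and 3.97 CPM. It passed in P1048R at −1.07 (−1.68 to −0.49), but not with total counts at −0.84. In these calls WT was the highest library.

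T1202K was the lowest library for KCNQ1OT1, the paternally expressed RNA of the imprinted KCNQ1 domain, at 28.4 CPM in WT, 19.3 in P1048R, 13.7 in T1202K and 19.3 in C1233W. Its ratio in T1202K was −1.05 (−1.35 to −0.76). NIFK-AS1 was at 8.77, 4.86, 4.06 and 6.48 CPM and passed in T1202K at −1.10 (−1.66 to −0.57). AC003681.1, a single exon that starts inside the phosphatase gene MTMR3, was at 6.42, 4.86, 3.00 and 6.0 CPM and passed in T1202K at −1.09 (−1.75 to −0.47). MBNL1-AS1, divergent from the splicing regulator gene MBNL1, was at 8.45, 5.28, 3.89 and 3.58 CPM, lower in T1202K at −1.11 (−1.69 to −0.57) and in C1233W at −1.23 (−1.84 to −0.66). None of the 4 calls in T1202K passed with total counts, where their ratios were −0.87 for KCNQ1OT1, −0.93 for NIFK-AS1, −0.91 for AC003681.1 and −0.94 for MBNL1-AS1.

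**Figure D3:**
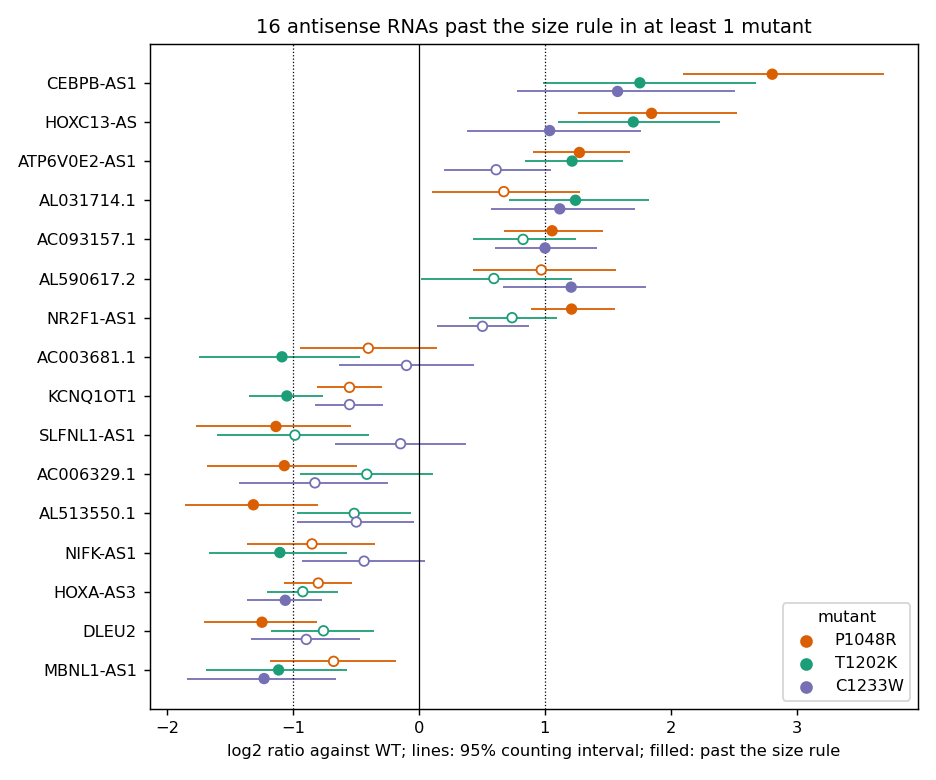
Log2 ratio to WT, with its 95% counting interval, of the 16 antisense RNAs past the size rule in at least 1 mutant, 1 colour per mutant, with filled points where the rule was passed and dashed lines at −1 and 1. CEBPB-AS1 and HOXC13-AS are filled in all 3 mutants, and MBNL1-AS1 is filled at −1.11 in T1202K and −1.23 in C1233W.

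Among the antisense RNAs of the HOX clusters, whose protein-coding genes set position along the body axis, 1 passed upward and 1 downward. This group and those of the next paragraph were drawn up after the values had been seen. The 10 members had medians of −0.25, −0.23 and −0.22 in P1048R, T1202K and C1233W, or −0.03, −0.06 and −0.09 with total counts, with HOXC13-AS higher in each and HOXA-AS3 lower in C1233W. HOXA-AS3 was at 29.3 CPM in WT, 16.8 in P1048R, 15.5 in T1202K and 14.0 in C1233W, WT standing above the rest. Its ratio in C1233W was −1.06 (−1.36 to −0.77), and −0.93 with total counts, where it no longer passed. Of all genes compared 4.48%, 2.95% and 4.19% were higher and 3.02%, 2.21% and 1.21% lower in P1048R, T1202K and C1233W. HOTAIR, transcribed from the HOXC cluster, was at 25.5, 15.8, 13.5 and 21.0 CPM, and HOXB-AS3 at 26.1, 17.3, 18.2 and 16.3, both with ratios under 1 in size. HOTAIRM1 was lowest in WT at 22 CPM, with 28, 22.6 and 25.3 in the mutants.

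A further 12 antisense RNAs belong to other developmental regulators and had medians of 0.00, 0.00 and 0.13, or 0.22, 0.17 and 0.26 with total counts. CEBPB-AS1 and NR2F1-AS1 were the ones past the rule, the latter in P1048R alone. The shares of all genes compared given for the HOX group apply to this group and to the zinc finger group below. FOXD3-AS1, beside the pioneer factor gene FOXD3, was lowest in WT at 7.38 CPM with 13.9, 11.7 and 13.1 in the mutants, and its ratios of 0.91, 0.66 and 0.82 did not pass. TBX2-AS1 was at 3.32, 6.20, 5.30 and 5.61 CPM with ratios of 0.89, 0.66 and 0.75. GATA2-AS1 stayed level at 23.3, 23.3, 23.7 and 23.8 CPM. The 7 beside other zinc finger and THAP genes had medians of −0.12, −0.09 and 0.22, the first 2 of which turn positive with total counts, and none passed.

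For 18 members, from a list of antisense RNAs with a described role, the medians were −0.46, −0.41 and −0.27, with none higher and 1 lower in each mutant: DLEU2 in P1048R, KCNQ1OT1 in T1202K and HOXA-AS3 in C1233W. Of all genes compared 4.48%, 2.95% and 4.19% were higher and 3.02%, 2.21% and 1.21% lower, so few calls in either direction could fall among 18 members. With total counts the medians of the 18 were −0.24, −0.23 and −0.14. The CDKN2B-AS1 transcript (ANRIL), which crosses the INK4 locus, was at 3.21 CPM in WT, 6.28 in P1048R, 5.39 in T1202K and 6.0 in C1233W, lowest in WT but with no ratio past the rule. PAXIP1-AS2 was highest in WT, at 21.7 CPM against 11.9, 11.6 and 13.1, with ratios of −0.87, −0.91 and −0.73. MCM3AP-AS1 was at 21.9, 14.8, 12.5 and 19.2 CPM. With total counts FOXD3-AS1, TBX2-AS1 and CDKN2B-AS1 did pass in P1048R, at 1.13, 1.11 and 1.18, and CDKN2B-AS1 also in C1233W at 1.02.

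Among the others on this list, HOXA-AS2 was at 10.4, 10.1, 8.83 and 10.3 CPM, and HOXD-AS2 at 10.4, 6.53, 7.86 and 7.25. LOXL1-AS1 was at 11.3, 7.62, 10.5 and 8.22 CPM, TTN-AS1 at 11.4, 9.63, 8.57 and 7.84, ZEB1-AS1 at 11.6, 12.6, 11.4 and 15.1, and TMPO-AS1 at 5.78, 6.78, 7.15 and 6.48. None of these 6 passed the rule.

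The mutants were also set beside each other. Between P1048R and T1202K, CEBPB-AS1 alone passed of the 146 (1.24% of all genes compared), at 1.05 (0.63 to 1.5) higher in P1048R. Between C1233W and P1048R it was again the 1 to pass (4.54% of all genes), at −1.23 (−1.71 to −0.78). Between C1233W and T1202K 2 passed (3.54% of all genes), both higher in C1233W. GABPB1-AS1 did so at 1.10 (0.93 to 1.28), and AC097534.2, divergent from SAP30, a gene of the SIN3 histone deacetylase complex, at 1.25 (0.76 to 1.76) from 4.50 CPM in T1202K and 10.7 in C1233W.

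Each antisense RNA was then read beside the gene its symbol names. The symbol of 76 members ends in -AS and a number, and for 72 the named sense gene was in the table, always a protein-coding gene. HOXA-AS2, HOXA-AS3, HOXB-AS3 and HOXD-AS2 name a cluster instead. In 69 pairs the sense gene was also compared, the exceptions being NUTM2A, NUTM2B and SDCBP2. Of these pairs 45 were head-to-head, 16 tail-to-tail, in 7 the antisense RNA spanned the sense gene, and SREBF2-AS1 started inside it. By position alone, whatever the symbol, 111 of the 146 (76.0%) were head-to-head with a protein-coding gene.

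Per kilobase of exonic length the sense gene stood above the antisense RNA in 48 pairs and below it in 21, with a median level ratio of 0.350. A median of 4.51% of the antisense exonic bases lay in exons of the sense gene, and 14 pairs shared none. The log2 ratios of antisense and sense RNA had, across the 69 pairs, a Pearson's r of 0.09 in P1048R, 0.13 in T1202K and 0.25 in C1233W and a Spearman's rho of 0.06, 0.15 and 0.20. Both values of a pair come from the same 2 libraries and share their scaling, so these are descriptions. The signs matched in 33, 38 and 38 pairs. Within the 45 head-to-head pairs r was −0.04, 0.00 and 0.25, and within the 16 tail-to-tail pairs 0.40, 0.32 and 0.31.

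**Figure D4:**
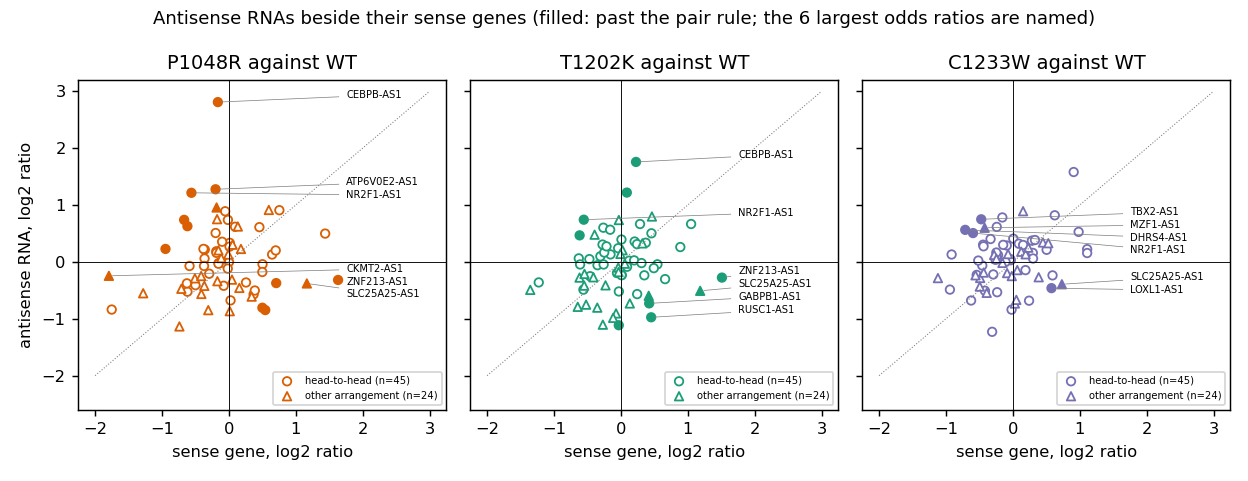
Log2 ratio to WT of each antisense RNA (vertical) against that of its sense gene (horizontal), 1 panel per mutant, for 69 pairs, as circles for 45 head-to-head pairs and triangles for the other 24, filled where the pair rule was passed. The points form no line along the diagonal, and CEBPB-AS1 lies highest in P1048R at 2.81 with its sense gene at −0.17.

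The share of a pair's reads that fell on the antisense RNA does not depend on how libraries are scaled. A pair passed the pair rule when the log2 odds ratio of this share against WT reached 1 or −1 and its 95% interval lay to one side of 0. In P1048R 13 of 69 pairs passed (18.8%), 8 with a higher antisense share and 5 with a lower one. Of 4087 opposite-strand gene pairs 14.8% did so, and of 2115 with at least 200 reads in each gene 11.3%. In T1202K 10 passed (14.5%; 11.3% and 6.34%), 4 with a higher share and 6 with a lower. In C1233W 6 passed (8.70%; 10.9% and 6.62%), 4 with a higher share and 2 with a lower. In no pair did both genes pass the size rule in the same mutant. Few could, as few genes of the 69 pairs passed it. Of the antisense RNAs 3 were higher and 1 lower in P1048R, 2 and 2 in T1202K, and 1 and 1 in C1233W. Of the sense genes 3 were higher and 3 lower, 3 and 1, and 2 and 1. The share of such pairs in the background is not given here, so their absence is not read as a result.

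In the CEBPB pair the antisense share was 15.7% (9.24 to 24.2) with WT, 60% (53.6 to 66.2) with P1048R, 35.4% (28.6 to 42.7) with T1202K and 23.2% (17.9 to 29.1) with C1233W. The share was highest in P1048R, whose exact binomial interval overlapped none of the others. For P1048R the log2 odds ratio was 2.97 (2.13 to 3.82), for T1202K 1.53 (0.66 to 2.40) and for C1233W 0.67 (−0.21 to 1.55), the last not past the rule. CEBPB itself was at 9.20, 8.21, 10.8 and 17.3 CPM, so in C1233W both RNAs stood above WT.

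In the NR2F1 pair the share was 6.41% in WT, 19.0% in P1048R, 14.4% in T1202K and 12.8% in C1233W, and all 3 odds ratios passed, at 1.77 (1.44 to 2.11), 1.3 (0.94 to 1.65) and 1.10 (0.73 to 1.47). Here the antisense RNA was higher and the sense gene lower: NR2F1 had 161 CPM with the WT construct and 109, 110 and 107 with the mutants, though its ratios did not pass. In the ATP6V0E2 pair the share was 11.4%, 26.5%, 22.1% and 18.9%, with odds ratios of 1.48 (1.07 to 1.88), 1.13 (0.72 to 1.54) and 0.86 (0.41 to 1.3). ATP6V0E2 stood at 63.1, 54.9, 67.1 and 53.4 CPM.

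In other pairs it was the sense gene that passed the size rule. ZNF213, a zinc finger gene, was at 12.8 CPM in WT, 39.9 in P1048R, 36.6 in T1202K and 27.8 in C1233W, past the size rule in every mutant at 1.63, 1.51 and 1.11. ZNF213-AS1, which starts 41 bases away, was at 8.77, 7.04, 7.24 and 10.3 CPM with no ratio past the rule. The antisense share was 40.6%, 15.0%, 16.5% and 27%, with odds ratios of −1.95 (−2.47 to −1.42), −1.79 (−2.31 to −1.26) and −0.89 (−1.40 to −0.37). After removal of a trend with GC content and length the ratio of ZNF213 in C1233W was 0.94.

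SLC25A25, the gene of a mitochondrial ATP-Mg/phosphate carrier, was at 14.7, 32.9, 33.4 and 24.4 CPM, past the rule in P1048R at 1.16 and in T1202K at 1.18. SLC25A25-AS1, arranged tail-to-tail with it, was at 11.4, 8.80, 8.04 and 8.71 CPM. The antisense share was 43.9%, 21.1%, 19.4% and 26.3%, and all 3 odds ratios passed, at −1.54 (−2.02 to −1.07), −1.69 (−2.18 to −1.20) and −1.13 (−1.63 to −0.62). In both of these pairs WT had the highest antisense share.

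RUSC1-AS1 was at 10.3, 5.70, 5.21 and 6.38 CPM and RUSC1, a gene of a signalling adaptor, at 37.9, 55.2, 51.8 and 44.8, the antisense RNA below and the sense gene above WT in each mutant, with no ratio past the size rule. The share was 21.3%, 9.35%, 9.13% and 12.5%, with odds ratios of −1.39 (−1.87 to −0.91), −1.43 (−1.93 to −0.92) and −0.92 (−1.42 to −0.43). In the GABPB1 pair the share was 70.0% in WT, 52.4% in P1048R, 51.2% in T1202K and 71.3% in C1233W. P1048R and T1202K stood apart there at −1.08 (−1.36 to −0.80) and −1.15 (−1.44 to −0.86), and C1233W lay beside WT at 0.09 (−0.19 to 0.37).

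In the DHRS4 pair, a retinol dehydrogenase gene and its antisense RNA, the share was 46.6%, 69.9%, 61.4% and 67.9%, with odds ratios of 1.41 (0.85 to 1.96), 0.86 (0.32 to 1.41) and 1.27 (0.69 to 1.86). DHRS4 has close paralogs beside it, so its counts are uncertain. The mitochondrial creatine kinase gene CKMT2 was low, at 3.00, 0.838, 1.15 and 1.35 CPM, and past the size rule downward in all 3 mutants, the C1233W call being lost at −0.99 with total counts. The share of CKMT2-AS1 was 82.2%, 93.3%, 89.5% and 89.3%, past the pair rule in P1048R at 1.55 (0.47 to 2.63).

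Among the largest odds ratios in C1233W were also those of TBX2, MZF1 and LOXL1. The share of TBX2-AS1, beside a T-box transcription factor gene, was 13.4%, 23.1%, 16.8% and 26.6%, with an odds ratio of 1.22 (0.53 to 1.91) in C1233W. For MZF1-AS1, which spans the zinc finger gene MZF1, the share was 35.3%, 51.0%, 50% and 52.6%, with an odds ratio of 1.02 (0.51 to 1.54). For LOXL1-AS1, divergent from a lysyl oxidase gene of elastic fibres, it was 85.5%, 75.2%, 79.3% and 73.9%, with an odds ratio of −1.04 (−1.97 to −0.11), which was −0.99 and no longer passed with 2 added to each count. SLC16A1-AS1, among the 10 highest in level, passed in P1048R at 1.17 (0.98 to 1.37), where the lactate transporter gene SLC16A1 was at 227 CPM against 438 in WT.

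**Figure D5:**
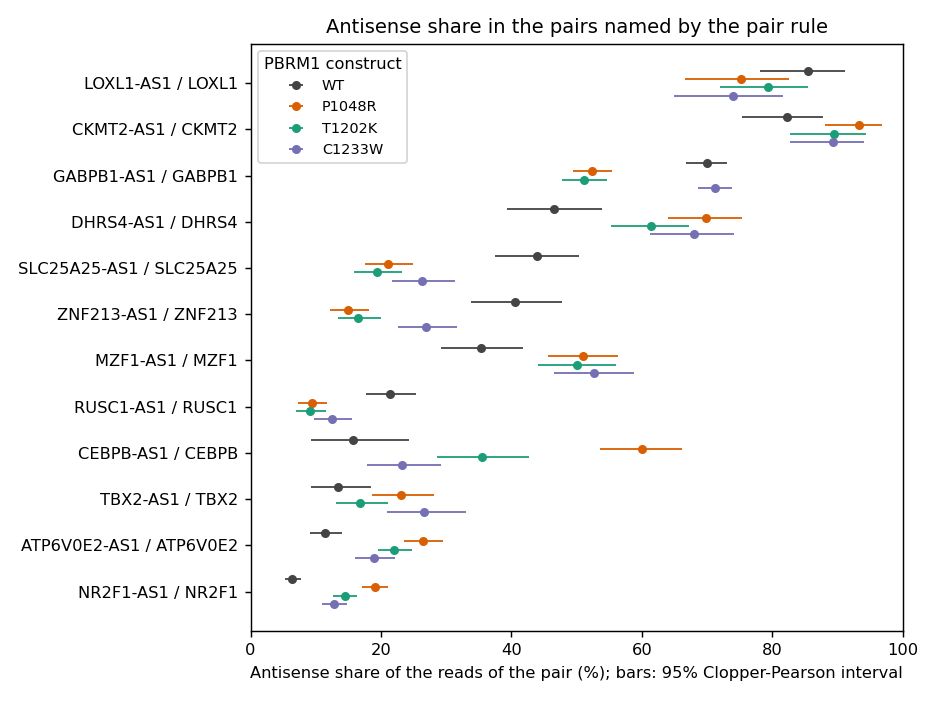
Antisense share of the reads of 12 pairs, in percent, in each library, with its exact 95% binomial interval. CEBPB-AS1 is at 15.7% in WT and 60% in P1048R, whereas ZNF213-AS1 and SLC25A25-AS1 are highest in WT at 40.6% and 43.9%.

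The genes of the machinery that degrades antisense transcripts were read from a list of 26 exosome, adaptor, cap-binding and early termination genes, all of them compared. None passed the size rule in either direction in any mutant, where 4.48%, 2.95% and 4.19% of all genes compared were higher and 3.02%, 2.21% and 1.21% lower in P1048R, T1202K and C1233W. Their median ratios were −0.11 in P1048R, −0.05 in T1202K and −0.23 in C1233W, against −0.04, −0.01 and −0.01 for all genes compared. The lowest ratios belonged to ZFC3H1, the zinc finger subunit of the PAXT adaptor, in P1048R and T1202K and to MPHOSPH6, an exosome cofactor, in C1233W. ZFC3H1 was at 145 CPM in WT, 85.0 in P1048R, 81.2 in T1202K and 98.5 in C1233W, with ratios of −0.77 (−0.89 to −0.65), −0.84 (−0.96 to −0.72) and −0.56 (−0.68 to −0.44). MPHOSPH6 was at 76.6, 51.6, 54.0 and 45.1 CPM, with ratios of −0.57 (−0.73 to −0.41), −0.51 (−0.66 to −0.35) and −0.76 (−0.94 to −0.59). Both were highest in WT, with intervals below 0 in each mutant.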

How the data were processed

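RNA was measured in 4 libraries of PBRM1-disrupted HEK293T cells, 1 for each construct. The authors deposited raw counts of reads for each gene, as whole numbers with no normalization. Per the submitters' processing notes, the tools were Trim Galore, HISAT2 and featureCounts with the build hg38. The sources used here do not give the annotation, the strand setting or how multiply aligned reads were handled. All 58735 identifiers matched GENCODE release 29 (GRCh38), which gave positions and lengths, and promoter sequences came from RefSeq (GRCh38.p14).

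Library sizes were scaled by TMM (edgeR 4.0.16, R 4.3.3). In the order WT, P1048R, T1202K, C1233W, the factors were 0.912, 1.07, 1.03 and 0.999, the total counts 10246250, 11205322, 10993748 and 10348552, and 3 reads, taken as the floor, were worth 0.321, 0.251, 0.265 and 0.290 CPM. Ratios used counts with 0.5 added and 95% intervals from Clopper-Pearson bounds, and odds ratios used normal-approximation (Woolf) intervals with 0.5 added to each cell. Both rules were run on simulated counts with counting (Poisson) error alone, as the intervals assume, so this cannot test them against variation between libraries. Python 3.11.15 with scipy 1.17.1 was used, and DESeq2 1.42.0 gave alternative size factors.

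Named genes were the 10 highest in mean CPM, up to 10 past the size rule per mutant and direction, up to 6 pairs per mutant by odds ratio, those past in all 3 mutants, and members of a list with known roles. Genes named outside this rule, such as AC097534.2, GATA2-AS1, PNISR, ZFC3H1, MPHOSPH6 and HOXC13, were chosen after their values were seen. The members, lists and rules were chosen with earlier results of these data known. The lists were RNA surveillance, markers (kidney epithelium, blood, endothelium, fibroblast) and known roles. The background of pairs with at least 200 reads per gene was added after seeing the data.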

Additional observations from a re-analysis of the deposited data

How the results depend on the processing

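Alternatives were other scalings (DESeq2 size factors, total counts, total counts without PBRM1), filters, an added count of 2, thinned counts, removal of a GC and length trend, and other read minimums for membership. With total counts and with total counts without PBRM1, the median ratio was 0.15 and 0.13 in P1048R, 0.024 and 0.016 in T1202K, and 0.16 and 0.22 in C1233W, and the antisense RNAs past the size rule in T1202K numbered 5 and 4. In C1233W 12 passed without PBRM1 in the total (11 higher, 1 lower), and of the 16344 genes then compared 1121 were higher and 94 lower. With a minimum of 100 reads, which takes in 298 antisense RNAs, 27 passed in P1048R, 23 in T1202K and 22 in C1233W, and 2 between P1048R and T1202K, 7 between C1233W and P1048R and 8 between C1233W and T1202K. With 500 reads, which leaves 55, these numbers were 3, 2, 2, 0, 0 and 1. Fewer or more genes enter by construction. Removing the GC and length trend left 1 between C1233W and T1202K, and the cause was not tested.

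Of single named genes, no ratio changed sign among those past the rule in 1044 comparisons of a gene and an alternative, 24 calls were lost and 20 gained. Beyond those given with the results, removal of the GC and length trend took AC006329.1 in P1048R to −0.86. In T1202K it took AC003681.1 to −0.53 and KCNQ1OT1 to −0.09. All members, KCNQ1OT1 included, were among the genes on which the trend was fitted. Removing the trend also took AL031714.1 in C1233W to 0.997. No paired analysis was possible because each construct has 1 library, so no replicate could be left out either. Members near the read minimum have about 50 reads per library, which limits their precision.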
